A study of Mus musculus with 65 samples.

Results

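Accessibility of freshly replicated DNA was compared between embryonic stem cells treated with DRB and cells given the solvent DMSO. The comparison covers 6 of the 65 samples of the series, the 3 nascent DRB and the 3 nascent DMSO libraries of EdU-labelled DNA, read at the windows of 31995 transcription start sites (TSSs), which are 30781 distinct windows, at 8794 windows at enhancers and at 4932416 other windows with a read. All cells were of the mouse line E14TG2a (strain 129/Ola), grown on gelatin in serum with LIF. The tested cells received DRB, and the others DMSO, for 2 h before 20 uM EdU was added for 10 min, after which both were collected at once. No drug dose is given in the labels. Whether replicates are separate cultures is not stated either, and each p-value therefore reflects only how these libraries spread, which may be technical variation. Fewer accessible copies of a site and less cutting per copy cannot be told apart in such bulk libraries.

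DRB is a nucleoside analogue that blocks CDK9, the kinase of P-TEFb. RNA polymerase II starts transcription, pauses shortly after the start site, and is released into the gene when P-TEFb phosphorylates the polymerase and its pausing factors NELF and DSIF. Triptolide, also used in the series, acts earlier, at initiation. Replication forks strip DNA of polymerase, transcription factors and nucleosomes, and the daughter strands are packed again behind the fork. EdU, a thymidine analogue, marks these strands so that they can be bound to streptavidin. The Tn5 transposase cuts open chromatin, so reads per window follow accessibility. In EdU libraries they also depend on how much of a region was copied and labelled, and these cannot be told apart in RPM. RPM is a read count scaled to a fixed library total, a share of the library, so a lower level at one place goes with a higher level elsewhere.

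The promoters of 4 of the genes named below are printed because their letters differ between the TSSs that fell and the few that rose with DRB. They are 300 bases each, 250 before to 50 after the RefSeq gene start on GRCm38.p6. Capitals mark every match, on either strand, to any of 7 motifs, and overlapping matches run together. The motifs were TATAAA, the core of the TATA box, then GGGCGG, the GC box bound by Sp factors, then CCAAT, the box bound by NF-Y, then CCGGAA, the core of ETS factor sites, and the E-box, CRE and NRF1 consensus sites. Rbm42, at chr7:30650179-30650478 on the minus strand, held 18 CG dinucleotides and 3 of these motifs. Mllt1, at chr17:56935339-56935638 on the minus strand, held 46 CG dinucleotides. 4931408C20Rik, at chr1:26687411-26687710 on the minus strand, held 0 CG dinucleotides and none of the 7 motifs. Pdgfd, at chr9:6168236-6168535 on the plus strand, held TATAAA and 8 CG dinucleotides. The RefSeq starts of Rbm42 and Pdgfd lie 89 bp and 126 bp from the start sites listed by the authors.
Rbm42: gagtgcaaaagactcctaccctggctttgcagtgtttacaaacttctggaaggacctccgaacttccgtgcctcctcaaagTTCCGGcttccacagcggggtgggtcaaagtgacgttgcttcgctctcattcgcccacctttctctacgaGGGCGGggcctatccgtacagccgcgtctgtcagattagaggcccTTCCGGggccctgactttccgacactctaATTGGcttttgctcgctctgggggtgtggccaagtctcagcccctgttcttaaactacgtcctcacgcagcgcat
Mllt1: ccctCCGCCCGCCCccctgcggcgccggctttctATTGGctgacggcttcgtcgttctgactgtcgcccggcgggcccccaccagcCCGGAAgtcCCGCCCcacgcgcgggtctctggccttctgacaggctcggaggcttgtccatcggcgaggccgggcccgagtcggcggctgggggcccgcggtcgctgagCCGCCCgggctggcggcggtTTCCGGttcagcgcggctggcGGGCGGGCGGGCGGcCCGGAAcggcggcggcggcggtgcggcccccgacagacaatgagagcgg
4931408C20Rik: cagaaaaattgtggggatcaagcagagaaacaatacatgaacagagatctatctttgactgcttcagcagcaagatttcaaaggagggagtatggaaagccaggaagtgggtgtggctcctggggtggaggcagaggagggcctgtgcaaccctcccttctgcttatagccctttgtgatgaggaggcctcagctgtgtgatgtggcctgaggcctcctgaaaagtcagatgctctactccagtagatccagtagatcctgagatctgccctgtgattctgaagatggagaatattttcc
Pdgfd: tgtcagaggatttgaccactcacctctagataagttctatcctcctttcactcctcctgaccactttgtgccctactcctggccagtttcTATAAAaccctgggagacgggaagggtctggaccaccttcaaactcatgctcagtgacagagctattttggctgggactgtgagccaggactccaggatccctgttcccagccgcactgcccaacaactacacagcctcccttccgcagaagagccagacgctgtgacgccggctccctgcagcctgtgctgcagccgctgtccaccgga

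A RefSeq promoter was found for 14798 of 23665 tested genes. Among coding genes whose TSS fell with DRB, 75.7% of 614 promoters held GGGCGG, against 51.5% of all 13476, and the median number of CG dinucleotides was 23 against 16. The level of the TSS went along with this. Of the 4876 promoters whose TSS averaged at least 2 RPM, 74.3% held GGGCGG and the median was 23. CCGGAA stood in 29.6% of the promoters that fell, in 20.8% of all and in 32.4% of those with at least 2 RPM. The 31 promoters that rose had a median of 2 CG dinucleotides, 16.1% held GGGCGG and 22.6% held TATAAA, which 12.8% of all held. These shares are descriptions of letters in a window, and the part of the TSS level in them was not tested.

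The 3 DRB libraries held 2.11, 1.30 and 3.31 M reads (M stands for 1000000), and the 3 DMSO libraries 1.73, 1.98 and 3.78 M reads. One read is worth 0.302 to 0.770 RPM in DRB libraries and 0.265 to 0.577 RPM in DMSO libraries, so most windows rest on a few reads. Depth overlapped between the groups. Reads without molecular identifiers are not independent molecules, so spreads are given over libraries. The stem cell label was compared with marker lists. Of 34 pluripotency genes 31 could be tested and 0 were at 0 in all 6 libraries. The same held for the tested primitive endoderm, trophectoderm, fibroblast and neural and germ layer markers. That count thus does not tell cell types apart, and the sums given next are over lists of unlike length. Summed over their list the 31 pluripotency genes held 53.4 to 67.1 RPM in DRB and 82.5 to 101.6 RPM in DMSO libraries. Summed levels of 12 primitive endoderm markers were 11.4 to 21.2 RPM in DRB and 17.3 to 18.7 RPM in DMSO libraries, with 0 called by limma or limma-voom (0 and 0 unadjusted). For 7 trophectoderm markers the sums were 8.47 to 13.1 RPM in DRB and 9.59 to 13.5 RPM in DMSO libraries (0 called by limma or limma-voom, 0 and 0 unadjusted). For 11 neural and germ layer markers they were 8.51 to 16.9 RPM in DRB and 16.1 to 23.5 RPM in DMSO libraries (0 called by limma or limma-voom, 3 and 0 unadjusted), and for 8 2-cell-like markers 0.605 to 3.85 RPM in DRB and 1.15 to 2.52 RPM in DMSO libraries (0 called by limma or limma-voom, 0 and 0 unadjusted, 1 marker at 0). For 10 fibroblast markers they were 9.93 to 14.6 RPM in DRB and 9.80 to 12.96 RPM in DMSO libraries, with 1 called, Col3a1. The part of other cell types in the results was not tested.

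The comparison asks whether blocking the release of paused polymerase alters accessibility just behind the fork. TSS windows had lower RPM with DRB. Their mean level was 0.972, 1.096 and 1.086 RPM in the DRB libraries, against 1.41, 1.45 and 1.47 RPM in the DMSO libraries. No DRB library reached a DMSO library. The means were 1.05 ± 0.069 RPM with DRB and 1.44 ± 0.029 RPM with DMSO (SD, n = 3 each), a ratio of 0.729 (two-sided exact permutation test, p = 0.1, the smallest that 3 against 3 allows). As a percentage, TSS windows took 1.51 ± 0.099% of reads in DRB and 2.08 ± 0.044% in DMSO libraries (SD, n = 3 each), which restates the same measurement.

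Enhancers, distal sites bound by transcription factors, were lower too. Their windows held 0.990, 1.103 and 0.995 RPM in DRB libraries, against 1.28, 1.35 and 1.29 RPM in DMSO libraries, again without overlap, a ratio of 0.786 (exact permutation p = 0.1). The 136300 windows at other steady-state peaks averaged 1.03 ± 0.052 RPM with DRB and 1.26 ± 0.020 RPM with DMSO (SD, n = 3 each), a ratio of 0.819 (exact permutation p = 0.1). All other windows differed little, at 0.4256 ± 0.000644 RPM with DRB and 0.4225 ± 0.00099 RPM with DMSO, a ratio of 1.007 (SD, n = 3 each, exact permutation p = 0.1). Divided by background they turned lower, at 1.24 ± 0.025 with DRB and 1.38 ± 0.0076 with DMSO (SD, n = 3 each, exact permutation p = 0.1).

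Background windows, at least 1000 bp from every listed peak, were higher with DRB. They held 0.348, 0.336 and 0.347 RPM in DRB libraries, against 0.306, 0.304 and 0.306 RPM in DMSO libraries. All DRB libraries lay above all DMSO libraries, with a ratio of 1.125 (exact permutation p = 0.1), and background took 63.0 ± 1.3% of reads with DRB and 56.0 ± 0.30% with DMSO (SD, n = 3 each). Relative to this background, TSS windows stood 2.79, 3.26 and 3.13 times as high in DRB libraries, against 4.61, 4.76 and 4.79 times in DMSO libraries. The ratio of these enrichments was 0.648 at TSSs, 0.699 at enhancers and 0.728 at other peaks (exact permutation p = 0.1 each).

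**Figure D1:**
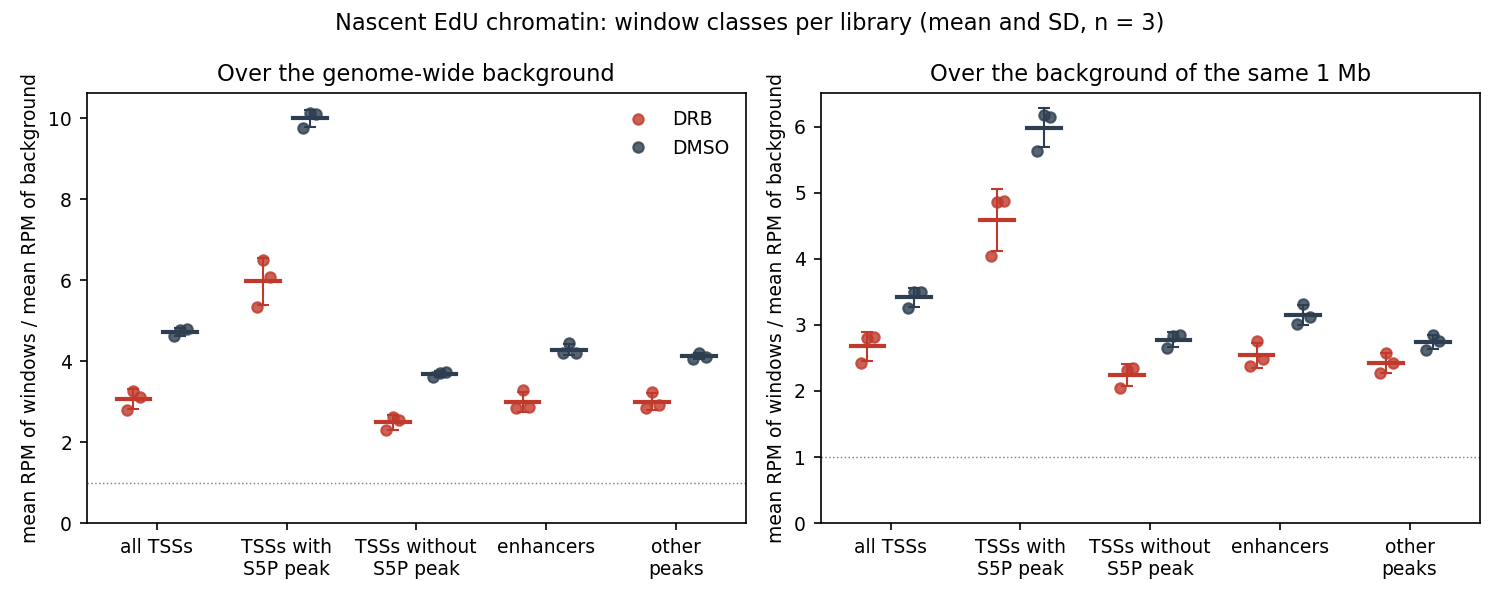
Mean RPM of each window class divided by the mean RPM of background windows of the same library, with DRB left of DMSO; points are libraries, bars the mean and SD of 3. Every DRB library lies under every DMSO library at TSSs, where the means are 3.06 and 4.72, and at enhancers, where they are 2.997 and 4.289.

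The background itself was not even along the genome, so it was also taken from the same 1 Mb, a scaling chosen after the values were seen. Near TSSs this local background was 0.396 ± 0.0076 RPM with DRB and 0.425 ± 0.010 RPM with DMSO (SD, n = 3 each). TSS windows stood 2.42, 2.80 and 2.81 times above it in DRB libraries, against 3.25, 3.494 and 3.503 times in DMSO libraries. The groups stayed apart, with a ratio of 0.784 at TSSs, 0.807 at enhancers and 0.882 at other peaks (exact permutation p = 0.1 each). With a background at least 5000 bp from peaks the TSS ratio was 0.592.

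TSSs with polymerase differed by more than the others. S5P is the form of polymerase II phosphorylated on serine 5 of its tail, found at initiating and paused polymerase, and the authors listed its peaks. At the 5073 distinct windows of the 5578 TSSs within 500 bp of such a peak the mean was 2.05 ± 0.17 RPM with DRB and 3.05 ± 0.064 RPM with DMSO (SD, n = 3 each), a ratio of 0.672. At TSSs without one it was 0.854 ± 0.049 RPM with DRB and 1.12 ± 0.023 RPM with DMSO (SD, n = 3 each), a ratio of 0.760. Over local background the 2 ratios were 0.767 and 0.806. TSSs near a peak of the authors' nascent list had a ratio of 0.669, with 1.98 ± 0.18 RPM with DRB and 2.97 ± 0.072 RPM with DMSO, and enhancers near one had a ratio of 0.701, with 1.89 ± 0.20 RPM with DRB and 2.70 ± 0.095 RPM with DMSO (SD, n = 3 each). Without such a peak the ratio was 0.850 for both. The difference between them was not tested, and TSSs with S5P also have higher levels.

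The level in the rest of the chromatin, taken from the unbound DMSO libraries, ordered the TSSs in the same way. With the tested TSSs cut by that level into 5 equal groups, in the lowest the mean was 0.321 ± 0.0036 RPM with DRB and 0.289 ± 0.0034 RPM with DMSO (SD, n = 3 each), a ratio of 1.11. From group 2 to group 5 the ratios were 0.917, 0.786, 0.711 and 0.659. In group 5 the mean was 2.34 ± 0.20 RPM with DRB and 3.55 ± 0.11 RPM with DMSO (SD, n = 3 each).

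The deficit was deepest at the TSS itself. Counting a window once for each TSS it serves, the centre held 1.08 ± 0.071 RPM with DRB and 1.49 ± 0.030 RPM with DMSO (SD, n = 3 each), a ratio of 0.725. From 1000 to 5000 bp upstream the levels were 0.565 ± 0.020 RPM with DRB and 0.661 ± 0.0078 RPM with DMSO, a ratio of 0.854, and at the same distances downstream they were 0.615 ± 0.026 and 0.733 ± 0.0085 RPM, a ratio of 0.839 (SD, n = 3 each, exact permutation p = 0.1 for each). The flanks lay apart between the groups too. Downstream over upstream was 1.09 ± 0.0073 with DRB and 1.11 ± 0.012 with DMSO (SD, n = 3 each), and there the libraries overlapped (exact permutation p = 0.2). At enhancers the flanks were at ratios of 0.894 and 0.891 and the centre at 0.786.

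**Figure D2:**
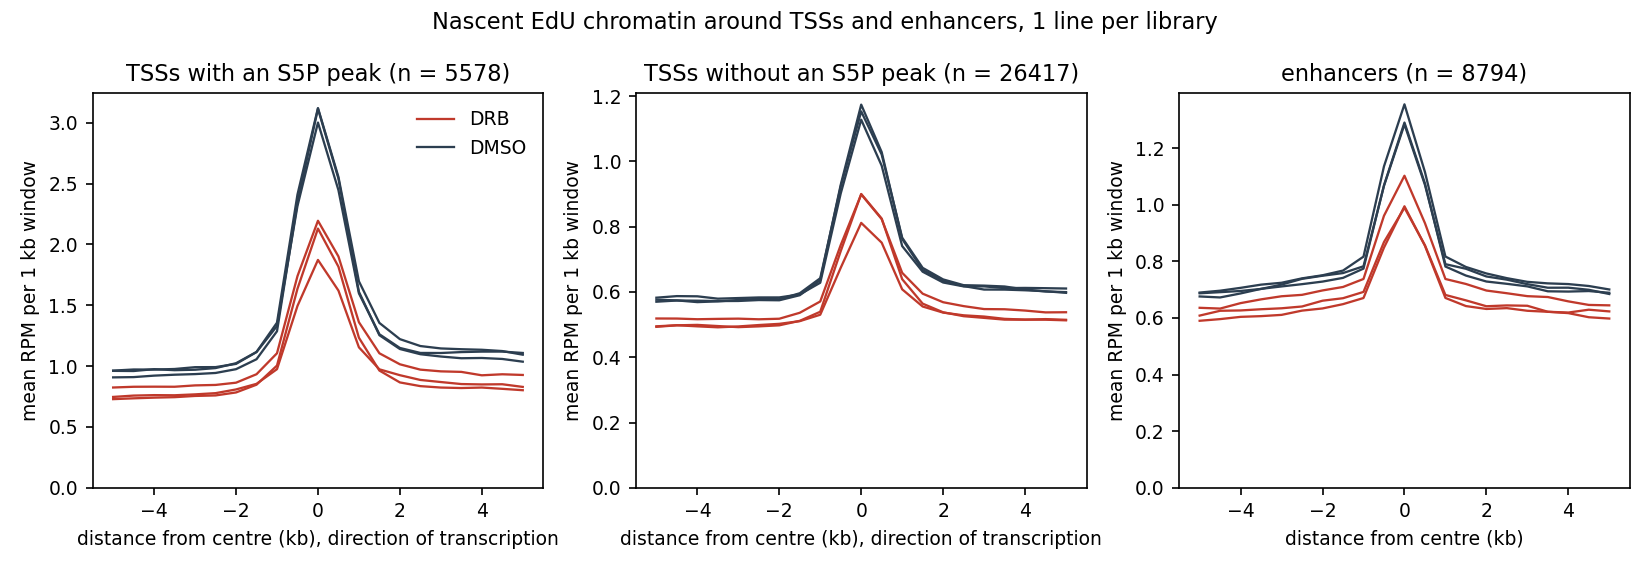
Mean RPM of 1 kb windows against distance in kb from the centre, 1 line per library, with DRB first in the legend and DMSO after it. At the centre of TSSs with S5P the means are 2.07 RPM with DRB and 3.08 RPM with DMSO. At TSSs without S5P they are 0.870 and 1.15 RPM, and at enhancers 1.03 and 1.31 RPM. In each of these sets the mean levels upstream and downstream are also lower with DRB, without overlap of libraries.

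Window by window, 888 TSSs fell and 78 rose with DRB of 28629 tested, 3.1% and 0.272% (limma over 18 EdU libraries, Benjamini-Hochberg adjusted p under 0.05). The median log2 difference was -0.18, and 66.2% of tested TSSs lay below 0. With each library centred on the median of the tested windows, which takes the median of all genes to -0.06 in place of -0.21, 228 fell and 120 rose. Scaled to local background 181 fell and 2 rose, and limma-voom on the recovered reads called 69 and 5. A fit on the 6 nascent libraries alone called 0 in either direction, with 2743 lower and 303 higher before adjustment (p under 0.05). The same 6 libraries thinned to the smallest likewise gave 0 calls with limma, with 1986 lower and 308 higher before adjustment. As the unthinned fit on these 6 already called 0, the thinned fit cannot show the part of depth. Without DMSO replicate 1, 2 or 3 the number that fell was 543, 471 or 476. The number that rose was 19, 20 or 50 without these and 139 without DRB replicate 3.

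At enhancers 119 fell and 13 rose of 8774 (1.36% and 0.148%), and at other peaks 735 fell and 80 rose of 136300 (0.539% and 0.0587%). Centred on the tested windows these were 35 and 14 at enhancers and 89 and 74 at other peaks. Leaving out DMSO replicate 1 or 2 brought the enhancers that fell to 74 or 31 and those that rose to 2 each, and the rise held 4 without DRB replicate 2 and 21 without DRB replicate 3. For other peaks the number that fell was 378 without DRB replicate 2, 1218 without DRB replicate 3, 311 without DMSO replicate 1 and 251 without DMSO replicate 2. The number that rose was 35, 141, 24 and 37 in the same order. In simulated TSS data with log2 differences of -2 and -1 this fit recovered 24% and 4% of changed windows, and with differences of 2 and 1 it recovered 72% and 4%. Losses were thus recovered less often than gains of the same size at 2 on the log2 scale, and most simulated TSS losses were missed. The simulated reads were drawn from window means over all 18 EdU libraries, 2 h chromatin included, and only windows of at least 2 RPM were changed. Recovery at the level of nascent windows alone was not simulated.

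S5P went along with the calls. Of 5057 tested TSSs with S5P, 365 fell (7.22%) and 2 rose, with a median of -0.43, and of 23572 without it 523 fell (2.22%) and 76 rose, with a median of -0.12. By the 5 groups of unbound level, 0.297%, 0.506%, 0.926%, 3.42% and 10.4% fell from the lowest to the highest. Coding genes under 5 kb long fell at 2.83% of 3779 TSSs, those of 5 to 50 kb at 4.67% of 9294 and those over 50 kb at 4.24% of 3818. Among tested TSSs of small nuclear RNA genes 5 of 862 fell and 5 rose (0.58% each), and among those of long noncoding RNA genes 40 of 1516 fell and 2 rose (2.64% and 0.132%), near the 3.1% and 0.272% of all TSSs.

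Paired with genes, 884 of 23665 fell and 60 rose (3.74% and 0.254%). The DRB and DMSO libraries did not overlap, in either direction, at 3993 of the 23665 genes, 16.9%. The 12 coding genes with the deepest loss were picked from called genes without overlap and with a mean of at least 2 RPM. Their separation is thus part of the choice. They had between 0 and 2.36 RPM in each DRB library and between 2.38 and 9.23 RPM in each DMSO library. Rbm42, an RNA-binding protein gene, had 0.473, 0 and 1.82 RPM at chr7:30650001-30651000 in DRB libraries, against 5.77, 5.05 and 5.56 RPM in DMSO libraries. No DRB library came near a DMSO library, and the difference was -2.01 ± 0.33 on the log2(RPM + 1) scale (SE, limma, Benjamini-Hochberg adjusted p = 3.6e-05). These values rest on 1, 0 and 6 reads in the DRB libraries and on 10, 10 and 21 reads in the DMSO libraries. Rnf5, a ubiquitin ligase gene, had 0.473, 0 and 0.605 RPM in DRB libraries at chr17:34603001-34604000, against 5.19, 5.05 and 2.91 RPM in DMSO libraries (log2 difference -1.98). The groups were apart, with all DRB libraries under 1 RPM.

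Mllt1, whose protein ENL reads acetylated histones in the super elongation complex together with P-TEFb, had 1.42, 0 and 1.82 RPM in DRB libraries at chr17:56935001-56936000, against 4.04, 8.58 and 6.88 RPM in DMSO libraries. Every DMSO library lay above every DRB library, as the choice of these genes required. The log2 difference was -1.93 ± 0.32 (SE, limma adjusted p = 4.1e-05). Ciao1, a factor of cytosolic iron-sulfur protein assembly, shares its window at chr2:127247501-127248500 with the start of Tmem127, so the 2 cannot be told apart. It had 0, 2.31 and 1.21 RPM in DRB libraries, against 6.34, 6.06 and 6.88 RPM in DMSO libraries (log2 difference -1.93). The DMSO libraries lay close together and far above every DRB library.

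Tfrc, the transferrin receptor that brings iron into cells, had 0.473, 0 and 1.51 RPM in DRB libraries at chr16:32608501-32609500, against 5.77, 5.05 and 3.44 RPM in DMSO libraries (log2 difference -1.87, limma adjusted p = 4.1e-05). Narf, at chr11:121237001-121238000, had 2.36, 0.770 and 0.908 RPM in DRB libraries, against 9.23, 6.56 and 6.61 RPM in DMSO libraries (log2 difference -1.90). It had the highest DMSO level of the 12. The others were Smim4 at -1.92, Rplp1 at -1.90, Gpatch2l at -1.88, Borcs8 at -1.88, Bphl at -1.85 and Spata2l at -1.83. Of the 12, 2 carried S5P, Rplp1 and Tfrc, and 11 had a nascent peak, Bphl being without one. All 12 kept their call without each library in turn, with limma-voom, after centring and after scaling to general or local background. Without the filter on empty windows Mllt1 did not pass (limma adjusted p = 0.056). None kept it in the 6 nascent libraries alone (limma adjusted p = 0.35 each), nor when these 6 were also thinned to the smallest.

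The same rule, which requires groups that lie apart, was met upward by 3 coding genes and downward by 506. 4931408C20Rik, a gene with no role given here, had 5.20, 3.08 and 6.65 RPM in DRB libraries at chr1:26687001-26688000, against 0.577, 1.01 and 2.38 RPM in DMSO libraries. The groups were apart, with a log2 difference of 1.39 ± 0.34 (SE, limma adjusted p = 0.0094). The call was lost without DRB replicate 3 (adjusted p = 0.051) or DMSO replicate 1 (0.072). Pdgfd, a platelet-derived growth factor gene, had 2.36, 3.85 and 3.93 RPM in DRB libraries at chr9:6168001-6169000, against 1.15, 0.505 and 1.32 RPM in DMSO libraries (log2 difference 1.14). The groups were apart, and the call was lost without DRB replicate 2 (limma adjusted p = 0.080), DRB replicate 3 (0.076) or DMSO replicate 2 (0.13). Lmo4, a LIM-only cofactor of transcription, had 3.78, 3.08 and 5.75 RPM in DRB libraries, against 0.577, 1.01 and 2.91 RPM in DMSO libraries (log2 difference 1.14). Its groups were narrowly apart, and the call was lost without DRB replicate 3 (limma adjusted p = 0.12), DMSO replicate 1 (0.17) or DMSO replicate 2 (0.10). None of the 3 passed after scaling to local background, where the adjusted p was 0.30, 0.39 and 0.094.

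**Figure D3:**
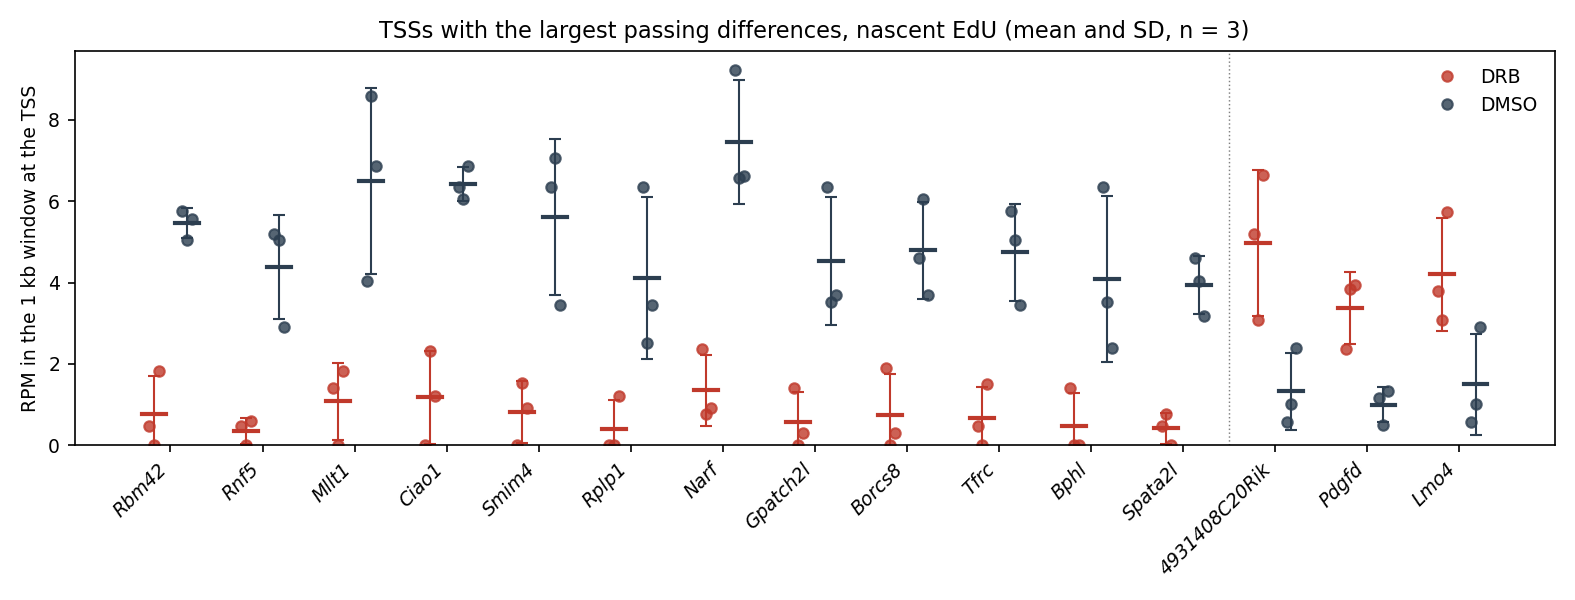
RPM in the 1 kb window at the TSS of the 12 coding genes with the deepest loss and, right of the dotted line, the 3 with the largest gain; DRB is left of DMSO, points are libraries and bars the mean and SD of 3. At Rbm42 the means are 0.763 with DRB and 5.46 with DMSO, and at 4931408C20Rik they are 4.98 with DRB and 1.32 with DMSO.

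Chaperone genes showed the largest median loss of the gene lists. Of 17 heat shock genes tested 6 fell and 0 rose, against 3.74% of all genes that fell, and the list median was -0.90 beside -0.21 for all genes. The list also had the highest DMSO level of the gene lists, with a median of 4.92 RPM against 1.40 RPM for all genes. Loss rose with unbound level among all TSSs, to 10.4% fallen in the highest of the 5 groups. The part of level in the loss of this list was not tested. The TSSs of 16 of the 17 lay below 0, and 2 of the 17, Hspd1 and Hspe1, share a window. Hsp90b1, the HSP90 chaperone of the endoplasmic reticulum, had 0, 1.54 and 1.51 RPM in DRB libraries, against 5.77, 4.04 and 4.23 RPM in DMSO libraries. The groups were far apart, with a log2 difference of -1.60 ± 0.31 (SE, limma adjusted p = 0.00053). Hspd1 and Hspe1, the mitochondrial HSP60 and HSP10, share 1 window. It held 0.946, 1.54 and 2.42 RPM in DRB libraries, against 6.34, 5.55 and 4.50 RPM in DMSO libraries (log2 difference -1.32, limma adjusted p = 0.0060). All DRB libraries were lower.

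Stip1, a co-chaperone that joins HSP70 and HSP90, fell by 1.19 on the log2 scale, and Hsf1, the heat shock transcription factor, fell by 1.12 in a window shared with Bop1. Hspb1, a small heat shock protein gene, fell by 1.07, with 1 DRB library at 2.12 RPM above a DMSO library at 2.02 RPM. Hspa8, the constitutive HSP70, held 5.67, 7.70 and 7.56 RPM in DRB libraries, against 9.23, 9.09 and 7.67 RPM in DMSO libraries. These lay close to each other, with a log2 difference of -0.28 (limma adjusted p = 0.61). Scaled to local background 4 of the 17 kept the call, Hsp90b1, Hspd1, Hspe1 and Stip1. With limma-voom 0 of the 17 passed, and the adjusted p of Hsp90b1 was 0.055.

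Genes of pausing and P-TEFb, the machinery that DRB acts on, leaned the same way with few calls. Of 28 tested 2 fell and 0 rose, 7.14% lower beside 3.74% of all genes. In the list 27 lay below 0 and the median was -0.54, while 16133 of all 23665 genes lay below 0. The median level of the list in DMSO was 3.21 RPM, against 1.40 RPM for all genes, and the part of level was not tested. Over local background and with limma-voom 1 of the 2 called genes passed, Mllt1. Besides Mllt1, limma called Supt5, the large subunit of the pausing factor DSIF. It had 1.89, 2.31 and 3.02 RPM in DRB libraries, against 4.61, 5.05 and 7.94 RPM in DMSO libraries, with a log2 difference of -0.99 ± 0.29 (SE, limma adjusted p = 0.035). Every DRB library was lower, but the call was lost without DRB replicate 1 (adjusted p = 0.10), DRB replicate 2 (0.062), DMSO replicate 2 (0.057) or DMSO replicate 3 (0.17). Cdk9, the kinase itself, had 2.36, 1.54 and 1.51 RPM in DRB libraries, against 2.31, 5.55 and 3.44 RPM in DMSO libraries, with 1 DMSO library under a DRB library (log2 difference -0.72, limma adjusted p = 0.22). Hexim1, the inhibitor of P-TEFb, had 0.946, 4.62 and 5.45 RPM in DRB libraries, against 6.34, 8.08 and 5.29 RPM in DMSO libraries (log2 difference -0.86, limma adjusted p = 0.094, and 0.026 without DRB replicate 3). Its DRB libraries were far apart from each other. The 4 subunits of NELF lay between -0.77 for Nelfe and -0.32 for Nelfcd, with Nelfa at -0.54 and Nelfb at -0.44, and none passed.

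Pluripotency genes had a median of -0.37, with 2 of 31 called, both lower, beside 3.74% of all genes. Neither passed over local background (limma adjusted p = 0.081 for Utf1 and 0.064 for Klf2) or with limma-voom (0.12 and 0.25). Utf1, a chromatin factor of stem cells, had 2.84, 1.54 and 3.93 RPM in DRB libraries, against 4.61, 7.57 and 12.2 RPM in DMSO libraries (log2 difference -1.24, limma adjusted p = 0.0085). No libraries overlapped, and the call was lost without DRB replicate 2 (adjusted p = 0.071) or DMSO replicate 3 (0.11). Klf2, a factor of naive pluripotency, was at -1.14 and lost its call without DRB replicate 2 (limma adjusted p = 0.17), DMSO replicate 2 (0.067) or DMSO replicate 3 (0.051). Sox2 had 0.473, 4.62 and 4.23 RPM in DRB libraries, against 5.77, 5.55 and 4.50 RPM in DMSO libraries, so that 1 DRB library stood apart from the others (log2 difference -0.83, limma adjusted p = 0.099). It passed without DRB replicate 2 (adjusted p = 0.030) or DRB replicate 3 (0.034). Pou5f1, the gene of OCT4, was at -0.33, Nanog at -0.46, Klf4 at -0.79 and Zfp42 at -0.52 (limma adjusted p = 0.61, 0.42, 0.20 and 0.32). Esrrb was low in both groups, at 0.673 ± 0.33 RPM with DRB and 0.809 ± 0.95 RPM with DMSO (SD, n = 3 each), and has no clear direction.

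Of 74 ribosomal protein genes 5 fell and 0 rose, with a median of -0.36, and 61 lay below 0. That is 6.76% beside 3.74% of all genes, with 2 lower over local background and 1 with limma-voom. Rplp1 had 0, 0 and 1.21 RPM in DRB libraries, against 6.34, 2.52 and 3.44 RPM in DMSO libraries. It had no read in 2 DRB libraries and fell furthest of the list (log2 difference -1.90, limma adjusted p = 0.00041). Rpl28 at -1.39 lost its call without DRB replicate 2 (limma adjusted p = 0.11) or DMSO replicate 2 (0.062). The others were Rps15 at -1.36, Rpl27 at -1.23 and Rps27a at -1.14. Of 37 replication fork genes 4 fell and 0 rose, with a median of -0.34. They were Mcm10 at -1.08, Mcm6 at -1.06, Pcna at -1.06 in a window shared with Cds2, and Pole at -1.01, which encode an initiation factor, a helicase subunit, the sliding clamp and the leading-strand polymerase. Pcna held 4.26, 3.08 and 2.42 RPM in DRB libraries, against 6.92, 9.59 and 6.88 RPM in DMSO libraries, and the groups were apart. The call for Pcna was lost without any 1 library other than DRB replicate 1 (limma adjusted p of up to 0.13, without DMSO replicate 2), and that for Mcm10 without DRB replicate 1 (0.14) or DMSO replicate 1 (0.097), 2 (0.077) or 3 (0.054). None of these 4 passed after scaling to local background or with limma-voom.

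Housekeeping genes had a median of -0.31, with 2 of 23 called lower, Vcp at -1.13 and Ppia at -1.12, beside 3.74% of all genes. Neither passed over local background (limma adjusted p = 0.16 and 0.11), when libraries were centred or with limma-voom. Ppia, a prolyl isomerase gene, held 3.31, 2.31 and 1.51 RPM in DRB libraries, against 6.92, 7.07 and 4.76 RPM in DMSO libraries, with the groups apart. Vcp lost its call without DRB replicate 2 (limma adjusted p = 0.20) or DMSO replicate 1 (0.11), and Ppia without DRB replicate 3 (0.075), DMSO replicate 1 (0.063) or DMSO replicate 2 (0.073). Gapdh was at -0.83 (limma adjusted p = 0.10, and 0.012 without DRB replicate 3). Ncl, the nucleolin gene, held 6.15, 6.16 and 5.75 RPM in DRB libraries, against 8.07, 7.57 and 7.94 RPM in DMSO libraries, in a window shared with C130036L24Rik. Its groups were apart by a narrow margin, with a log2 difference of -0.34 (limma adjusted p = 0.54).

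Some lists hardly differed from all genes or lay above them. Of 23 immediate early genes, which respond first to growth factors, limma called 0, with 4 lower and 1 higher at an unadjusted p under 0.05 (median -0.23). Myc was at -0.43 and Fos at 0.49 (limma adjusted p = 0.40 and 0.44), with limma-voom calling 0 of the list as well. Of 54 Polycomb-bound developmental regulators 1 was called, Neurod1, higher (median -0.23). It held 1.89, 3.85 and 2.42 RPM in DRB libraries, against 1.15, 0.505 and 0.794 RPM in DMSO libraries, with a log2 difference of 1.01 (limma adjusted p = 0.049). All DRB libraries were higher, and the call was lost without any 1 library other than DRB replicate 1 (adjusted p of up to 0.18, without DRB replicate 2), over local background (0.40) and with limma-voom (0.30). Of 57 replication-dependent histone genes and 21 p53 targets limma and limma-voom each called 0, both with a median of -0.05, which turned to 0.10 when libraries were centred. At an unadjusted p under 0.05 limma had 7 lower and 0 higher histone genes and 1 lower and 1 higher p53 targets.

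Olfactory receptor genes, silent in stem cells and set in gene-poor clusters, had a median of 0.07, with 11 of 942 higher and 2 lower (1.17% and 0.212%, beside 0.254% and 3.74% of all genes). The median level was 0.258 RPM with DRB and 0.192 RPM with DMSO, about 1 read or less, and fitted differences then depend on the pseudocount. Olfr1045 had 0.946, 2.31 and 0.908 RPM in DRB libraries and 0 in each DMSO library (limma adjusted p = 0.011, and 0.063 without DRB replicate 2). Olfr883 held 0.908 to 1.54 RPM in DRB libraries, and 0, 0 and 1 read in DMSO libraries (limma adjusted p = 0.012, lost without DMSO replicate 1 at 0.052 or 2 at 0.057). Olfr354 and Olfr813 had no read in a DRB library and 3, 1 and 3 reads and 1, 4 and 1 reads in DMSO libraries, and lost the call without DMSO replicate 1 (limma adjusted p = 0.11) and without any library but DMSO replicate 3. Over local background the list median was 0.01 and 0 of its genes passed. Col3a1, a fibroblast collagen gene, had 0.946, 1.54 and 0.908 RPM in DRB libraries against 0, 0 and 0.265 RPM in DMSO libraries. These are 2, 2 and 3 reads against 0, 0 and 1, and the call (limma adjusted p = 0.049) was lost without any 1 library but DRB replicate 3, over local background (0.26) and with limma-voom (0.16).

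**Figure D4:**
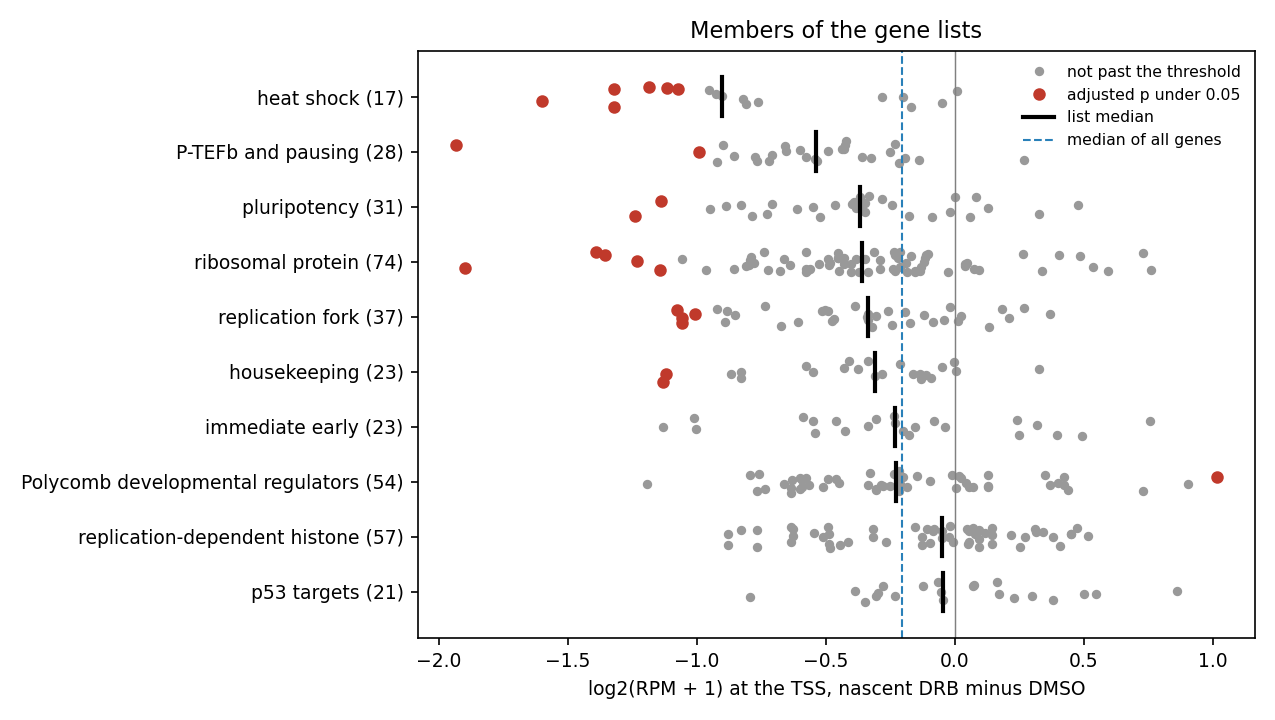
Difference in log2(RPM + 1) at the TSS, DRB minus DMSO, for every tested member of the gene lists except the olfactory receptors, which are not drawn. The list median is a black bar and the median of all genes, -0.21, a dashed line. Coloured points passed the threshold. The heat shock median lies at -0.90, and the median of the p53 targets at -0.05.

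Distal sites were named by the size of the passing difference alone, with no minimum level and with overlap of libraries allowed. The enhancer window chr13:112440001-112441000 had 0, 0.770 and 0.907 RPM in DRB libraries, against 4.04, 5.05 and 2.91 RPM in DMSO libraries. All DRB libraries were under 1 RPM (log2 difference -1.71 ± 0.32, SE, limma adjusted p = 0.0011), and the nearest coding start was that of Il31ra, 140161 bp away. The enhancer chr11:79752001-79753000 was at -1.66, 161289 bp from Rab11fip4, and chr16:30740501-30741500 had no read in the DRB libraries and 1.51 to 4.04 RPM in DMSO libraries. Upward, the enhancers chr6:16933001-16934000 and chr14:92826501-92827500 were at 1.42 and 1.39, the second with overlapping libraries, and chr4:51628501-51629500 had 1.42 to 3.02 RPM in DRB libraries and no read in DMSO libraries. None of these 3 passed over local background, while the 3 lower ones did.

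Among other peaks, the window chr16:23114001-23115000, which lies 7057 bp from the start of the translation factor gene Eif4a2, had 0, 0 and 0.907 RPM in DRB libraries, against 3.46, 7.07 and 3.44 RPM in DMSO libraries. It was empty in 2 DRB libraries and had the largest loss of the other peaks that passed (log2 difference -2.13 ± 0.34, SE, limma adjusted p = 1.4e-05). A window 6817 bp from Prrt3, chr6:113494501-113495500, was at -1.90, and one 12529 bp from Rnf213, chr11:119402501-119403500, at -1.85. The window chr14:96107001-96108000 was highest upward at 1.78, with 2.84, 3.08 and 3.63 RPM in DRB libraries, against 0, 0 and 0.794 RPM in DMSO libraries. It did not pass over local background (limma adjusted p = 0.10).

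On the megabase scale, background at least 1000 bp from peaks was higher with DRB in regions poor in TSSs and lower in regions dense in them. Of 2593 bins of 1 Mb, 1287 rose and 494 fell (49.6% and 19.1%, limma adjusted p under 0.05), counted only in windows at least 1000 bp from peaks. Centred on the median bin, 858 rose and 1037 fell, and with a background at least 5000 bp from peaks 244 fell. Summed over its background windows, a bin without a TSS held on average 275.0, 272.4 and 291.5 RPM in DRB libraries, against 167.6, 180.8 and 178.9 RPM in DMSO libraries, all DRB libraries being higher. Their median log2 difference was 0.67, and 71 of 72 rose. Bins with 21 to 40 TSSs held 436.4, 427.1 and 407.9 RPM in DRB libraries, against 523.5, 489.0 and 495.8 RPM in DMSO libraries, all DRB libraries being lower. Their median was -0.26, and 212 of 336 fell and 33 rose.

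The classes between were ordered. Medians were 0.65 with 1 to 3 TSSs, 0.31 with 4 to 10 and -0.06 with 11 to 20, and -0.17 with over 40. With background at least 5000 bp from peaks, the medians from 0 to over 40 TSSs were 0.68, 0.65, 0.35, -0.01, -0.17 and -0.01. The gain in bins poor in TSSs stayed there, while bins with over 40 lay near 0. Across the 2593 bins the log2 difference and the number of TSSs had a Spearman correlation of -0.75, given as a description, since all bins share the 6 libraries. The same classes from 0 to over 40 TSSs had medians of 0.25, 0.23, 0.14, 0.05, 0.02 and 0.05 in the unbound fraction of the nascent samples, where 8 bins rose and 0 fell (0.309% and 0%, limma, with 754 and 21 at an unadjusted p under 0.05). In EdU DNA at 2 h the DRB medians of these classes were 0.34, 0.32, 0.14, 0.05, 0.16 and 0.30. For triptolide against DMSO in nascent EdU DNA they were 0.38, 0.35, 0.09, -0.003, 0.11 and 0.21. The DRB difference in nascent EdU minus that in unbound DNA passed in 593 bins upward and 333 downward (22.9% and 12.8%).

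Single bins showed the extremes. The bin chr14:31000001-32000000, with 28 TSSs, held 333.7, 297.8 and 296.8 RPM in summed windows in DRB libraries, against 619.2, 523.0 and 543.2 RPM in DMSO libraries. All DRB libraries were far lower (log2 difference -0.86 ± 0.090, SE, limma adjusted p = 4.7e-09). The bins chr1:36000001-37000000 and chr2:155000001-156000000 were at -0.77 and -0.74. Upward, the bin chrX:148000001-149000000 held 63.7, 43.4 and 54.9 RPM in DRB libraries, against 24.0, 21.0 and 27.2 RPM in DMSO libraries. The groups were apart (log2 difference 1.12, limma adjusted p = 1e-04), and 2 bins of the Y chromosome at 38 Mb and 23 Mb rose by 1.38 and 1.15 on fewer reads. Chromosome 11 took 5.99 ± 0.15% of reads with DRB and 6.76 ± 0.0045% with DMSO, and the X chromosome 2.45 ± 0.039% with DRB and 2.14 ± 0.020% with DMSO (SD, n = 3 each, exact permutation p = 0.1 each). The groups lay apart on every other chromosome too. Ratios of DRB to DMSO shares ran from 0.886 on chromosome 11 to 1.145 on the X and 1.245 on the Y.

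**Figure D5:**
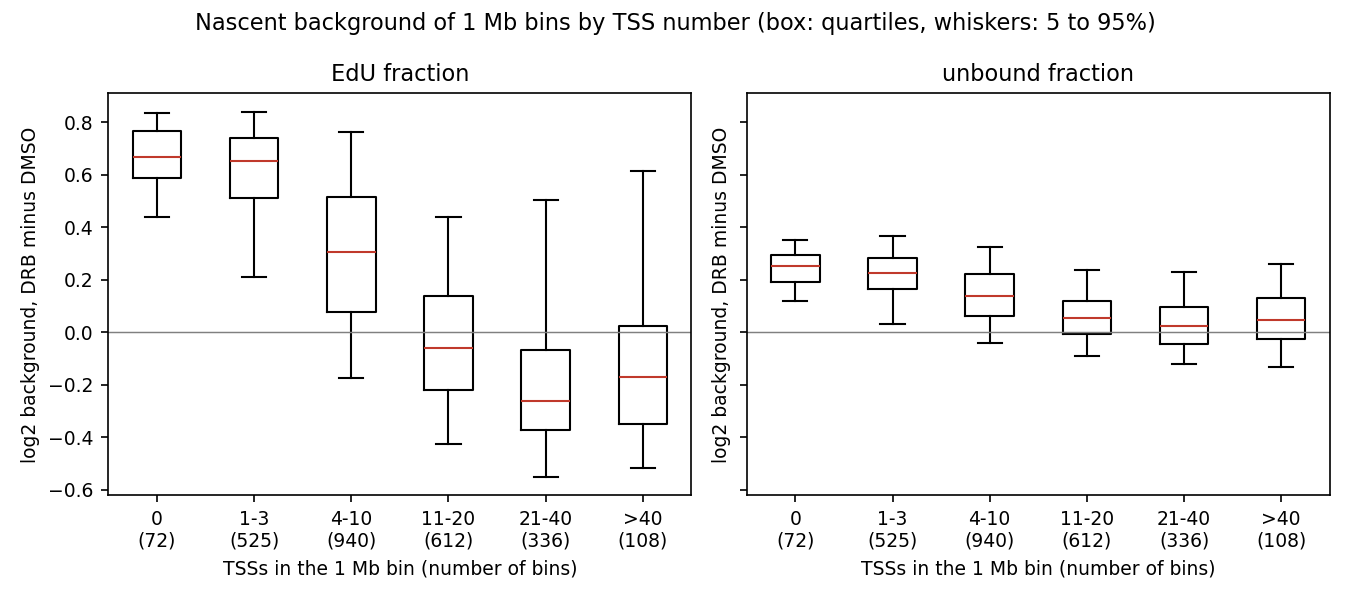
Log2 difference in background, DRB minus DMSO, for 1 Mb bins grouped by the number of TSSs in them, in the nascent EdU and unbound libraries. Boxes are quartiles and whiskers 5 to 95%. In nascent EdU chromatin the median runs from 0.67 in bins without a TSS to -0.26 in bins with 21 to 40.

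This regional shift moved with the TSS calls. Of 10990 TSSs in bins that fell, 564 fell and 4 rose, with means of 1.22 ± 0.079 RPM with DRB and 1.92 ± 0.032 RPM with DMSO (SD, n = 3 each), a ratio of 0.637. Of 6864 TSSs in bins that rose, 42 fell and 59 rose, with a ratio of 0.984. Over local background 68 of the 10990 TSSs fell in the bins that fell and 37 of the 6864 in those that rose. In bins not called 76 of 10518 fell, and of all 28629 tested TSSs 181 fell. The bins were called on the same background values that this scaling divides by, which draws these groups together by construction. The scaled counts therefore cannot show the part of the regional shift in the TSS calls, which was not tested in another way.

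The same classes were read in the other DRB and DMSO libraries, and the class ratios were not tested against each other. After a 2 h chase, EdU libraries held TSS levels of 2.61 ± 0.21 RPM with DRB and 3.22 ± 0.13 RPM with DMSO (SD, n = 3 each), a ratio of 0.811, and the enrichment over background had a ratio of 0.723. The labels do not state if DRB was present in the chase medium. In the unbound DNA of the nascent samples, which streptavidin did not hold, TSS levels were 3.36 ± 0.13 RPM with DRB and 3.65 ± 0.066 RPM with DMSO (SD, n = 3 each), a ratio of 0.920, with an enrichment ratio of 0.856 (exact permutation p = 0.1 for each of these). At enhancers the ratios of RPM were 0.795 at 2 h and 0.933 in unbound DNA. By window, 176 TSSs fell and 59 rose at 2 h (0.615% and 0.206% of 28629), and 400 enhancers fell and 42 rose (4.56% and 0.479% of 8774, limma adjusted p under 0.05). Scaled to background these were 1881 and 193 TSSs and 1532 and 100 enhancers, over local background 1433 and 139 TSSs and 1140 and 61 enhancers, and with limma-voom 857 and 189 TSSs and 645 and 84 enhancers. Centred, 115 TSSs fell and 50 rose, and the enhancers turned, with 38 lower and 107 higher.

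The difference between EdU and unbound DNA was tested by TSS. Of 29291 TSSs, 85 had a more negative and 12 a more positive DRB difference in EdU (0.29% and 0.041%), and 8 and 1 of 8784 enhancers (0.0911% and 0.0114%). These counts moved with single libraries: without DRB replicate 3 they were 620 and 123 TSSs and 89 and 16 enhancers. In unbound DNA alone limma called 12 TSSs lower and 2 higher (0.041% and 0.00683%), and limma-voom 64 and 21. N4bp2l2 had 0.946, 0 and 0.907 RPM in nascent DRB EdU libraries, against 5.19, 4.04 and 4.23 RPM in DMSO ones. The groups were far apart (log2 difference -1.82), while unbound DNA was at 0.13, and the difference of differences was -1.95 ± 0.32 (SE, limma adjusted p = 0.0026). Ciao1 and Naa25, a subunit of an N-terminal acetyltransferase, followed at -1.92 and -1.90 (limma adjusted p = 0.012 each). 4930404N11Rik, in a window shared with Mfsd12, went the other way at 1.64, with -0.23 in EdU and -1.87 in unbound DNA.

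Between 2 h and nascent chromatin the DRB difference was higher at 4 TSSs and lower at 2 of 28629 (0.014% and 0.00699%), and lower at 3 and higher at 0 of 8774 enhancers (0.0342% and 0%, limma, with 551 and 298 at an unadjusted p under 0.05, and limma-voom called 1 and 0). Scaled to background, 9 TSSs were higher and 2 lower and 1 enhancer was higher and 17 lower, and over local background 2 and 2 TSSs and 0 and 9 enhancers. Junb, an immediate early transcription factor gene, had a difference of -0.55 in nascent and 1.49 in 2 h chromatin, apart by 2.04 ± 0.44 (SE, limma adjusted p = 0.031). Lrrc75a was at -1.32 in nascent EdU, -3.98 in 2 h EdU and -2.45 in unbound DNA, and it differed by -2.65 ± 0.47 between the 2 EdU times (SE, limma adjusted p = 0.0016). Its nascent call was lost without DRB replicate 3 (limma adjusted p = 0.10) or DMSO replicate 3 (0.067).

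DRB and triptolide block transcription at different steps, and both were set against the same nascent DMSO libraries, so the 2 comparisons are not independent. With triptolide 3056 TSSs fell and 128 rose against DMSO (10.7% and 0.447%), and centred 1019 and 364. DRB and triptolide libraries were therefore compared directly. TSSs held 1.05 ± 0.069 RPM with DRB and 0.889 ± 0.034 RPM with triptolide (SD, n = 3 each), without overlap, a ratio of 1.18 (exact permutation p = 0.1), while over background, at 3.06 ± 0.24 with DRB and 2.71 ± 0.13 with triptolide, the libraries overlapped (exact permutation p = 0.2). At TSSs with S5P the level was 2.05 ± 0.17 RPM with DRB and 1.49 ± 0.050 RPM with triptolide (SD, n = 3 each), a ratio of 1.37, and the groups were apart on both scales. At TSSs without S5P the ratio was 1.11, and the libraries overlapped (exact permutation p = 0.2). Other peaks were at 1.03 ± 0.052 RPM with DRB and 1.04 ± 0.012 RPM with triptolide (SD, n = 3 each, exact permutation p = 0.8).

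By TSS, 144 were higher and 26 lower with DRB than with triptolide (0.503% and 0.0908% of 28629), and 12 and 6 of 8774 enhancers (0.137% and 0.0684%). Centred, the TSS counts were 29 and 17. Scaled to background limma called 0 TSSs in either direction, with 1552 higher and 804 lower at an unadjusted p under 0.05, and 0 enhancers higher and 1 lower, so that each gene named here lost its call. Over local background the TSS counts were 265 and 7 and the enhancer counts 3 and 1. Without DRB replicate 2, triptolide replicate 1 or triptolide replicate 2 they were 35, 38 or 28 higher and 4, 3 or 7 lower. Srm, the spermidine synthase gene, was at 0.00 with DRB and -1.67 with triptolide against DMSO (direct difference 1.67 ± 0.31, SE, limma adjusted p = 0.0050). Hspa8 was at -0.28 with DRB and -1.65 with triptolide, and Ncl at -0.34 and -1.60, with direct differences of 1.37 and 1.27 (limma adjusted p = 0.012 and 0.014). Ino80c, a chromatin remodeller subunit gene, and Trmt10b, a tRNA methyltransferase gene, differed by 1.57 and 1.56. Bphl was lower with DRB, at -1.85 with DRB and -0.40 with triptolide (direct difference -1.45, limma adjusted p = 0.024).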

How the data were processed

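Repli-ATAC-seq libraries of E14TG2a cells were compared, 3 per group, with groups taken from the labels. The deposited table holds log2(RPM + 1) values per 1 kb window every 500 bp, per the file headers, and the authors' TSS, enhancer and peak lists hold other values, positions only. Trim Galore 0.4.2, Bowtie2 2.2.6.2 and mm10 are named in the submitters' processing notes, while for peak calling no tool is named in them. RPM was recovered from the log2 values of the authors, and 100% of values were whole reads within 0.1 read. Libraries held 1.30 to 5.55 M reads (EdU) and 2.35 to 14.4 M reads (unbound), M standing for 1000000. Each TSS or enhancer took its nearest window.

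Two-sided exact permutation tests served for class means. Windows above 0 in at least 3 libraries were fitted with limma 3.58.1 (trend, R 4.3.3) on log2(RPM + 1) over 18 EdU libraries, with Benjamini-Hochberg adjustment over all windows of a kind. The fold scale understates changes of low windows. Genes were paired with TSSs within 1000 bp through RefSeq. Named genes were, each way, up to 12 coding genes with the largest passing difference, groups apart and a mean of at least 2 RPM, a fixed set, and up to 2 passing members per list, with up to 3 regions or bins each way, and up to 3 TSSs that differ between settings. Other list members, and Hspa8 and Ncl in the triptolide comparison, were named after their values were seen. Members, lists and rules were chosen with earlier results of these data known. The 2 fixed genes Actb and Ccnt1 were not paired with a tested TSS. Another gene of the fixed set is not reported here. Scripts ran in Python 3.11.15 with numpy 2.4.6, pandas 2.3.3 and scipy 1.17.1, and were checked on simulated data. Alternatives are in the closing section. The 29 samples outside the inhibitor table were not analysed here beyond the authors' peak lists.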

Additional observations from a re-analysis of the deposited data

Results flagged for a closer look

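The DRB difference was not the same in all kinds of chromatin when the difference itself was tested with limma (Benjamini-Hochberg adjusted p under 0.05). Between EdU and unbound DNA of nascent samples it was more negative in EdU at 85 TSSs and 8 enhancers and more positive at 12 TSSs and 1 enhancer. For 1 Mb bins the numbers were 333 more negative and 593 more positive in EdU.

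Between 2 h and nascent EdU chromatin it was higher at 2 h at 4 TSSs and lower at 2, and lower at 3 enhancers. Among 1 Mb bins 416 were higher and 178 lower at 2 h. EdU libraries held 1.30 to 5.55 M reads (M stands for 1000000) and unbound libraries 2.35 to 14.4 M, and the part of depth in these counts was not tested.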

How the results depend on the processing

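Ratios of TSSs, enhancers and other peaks lay below 1 under the alternatives given here, while all other windows, at 1.007 in RPM, turned to 0.896 over background. As means of log2(RPM + 1) they were 0.820 at TSSs, 0.846 at enhancers and 1.02 in all other windows (exact permutation p = 0.7), and 0.889 upstream, 0.817 at the centre and 0.879 downstream of TSSs. Autosomes alone gave 1.01 for all other windows. Over background at least 5000 bp from peaks the enrichment ratios were 0.592 at TSSs and 0.665 at other peaks, and over background of the same 1 Mb 0.784 at TSSs, 0.807 at enhancers and 0.882 at other peaks. Leaving out each library in turn gave 0.714 to 0.757 for TSS RPM, 0.758 to 0.801 for enhancers, 0.795 to 0.835 for other peaks, 1.12 to 1.14 for background and 1.01 for all other windows. Enrichment ratios were 0.627 to 0.677, 0.666 to 0.717 and 0.699 to 0.747 in the same order. In the profile they were 0.837 to 0.863 upstream, 0.710 to 0.753 at the centre, 0.819 to 0.850 downstream and 0.977 to 0.987 for downstream over upstream, and 1.14 to 1.16 for the X chromosome share.

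Counts of windows moved far more, and the cause was not tested. The thinned fit used only the 6 nascent libraries, so fewer reads and fewer libraries cannot be told apart in it. TSSs that rose and fell were 0 and 0 with only the 6 nascent libraries or thinned to the smallest library, 5 and 69 with limma-voom, 120 and 228 centred and 2 and 181 over local background. TSSs that rose were 27 at a mean of at least 2 RPM, 17 scaled to background and 194 with 3 windows, and 376 fell without the filter. Of the 23665 genes paired with a TSS, 1096 fell and 12 rose when scaled to background, beside 884 and 60 unscaled. In that setting 9 heat shock, 8 ribosomal protein and 6 replication fork genes fell, while pluripotency genes stayed at 2. Enhancers that rose and fell were 0 and 0 with 6 libraries or thinned, 1 and 1 with limma-voom, 4 and 50 without the filter and 2 and 54 over local background. Centred 35 fell, and 3 rose scaled to background and 20 with 3 windows. Other peaks that rose and fell were 0 and 1 with 6 libraries, 0 and 0 thinned, 8 and 8 with limma-voom, 11 and 420 scaled to background, 295 and 2615 with 3 windows and 18 and 68 over local background. Centred 89 fell, and with a pseudocount of 0.5 RPM 130 rose. Bins of 5 Mb rose in 297 and fell in 78 cases, 1037 bins of 1 Mb fell when centred, and 244 with far background. Without each library in turn 19 to 139 TSSs rose and 471 to 1122 fell, 2 to 21 enhancers rose and 31 to 175 fell, 24 to 141 other peaks rose and 251 to 1218 fell, and 1157 to 1268 bins rose and 389 to 510 fell.

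For EdU minus unbound DNA, TSSs higher and lower were 0 and 2 with limma-voom, with 22 lower centred. Enhancers were 0 and 0 with limma-voom, with 2 lower centred. Without each library they were 8 to 123 and 86 to 620 TSSs, and 0 to 16 and 4 to 89 enhancers. For 2 h minus nascent, TSSs higher and lower were 0 and 1 centred and 1 and 0 with limma-voom, and 1 enhancer was lower with limma-voom. Without each library they were 0 to 6 and 1 to 3 TSSs, and 0 to 1 and 2 to 7 enhancers. For DRB against triptolide, TSSs higher and lower were 0 and 0 scaled to background, 265 and 7 over local background, 29 and 17 centred and 8 and 5 with limma-voom, enhancers were 4 higher centred and 0 and 0 with limma-voom, and without each library they were 28 to 215 and 3 to 37 TSSs and 1 to 15 and 0 to 11 enhancers.

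Replicate numbers are shared by the groups, but same-numbered libraries did not deviate together (correlations of 0.03, 0.00 and 0.02). With the replicate number as a block, 88 TSSs rose and 987 fell and 1327 bins rose and 530 fell, and 130 TSSs were lower in EdU minus unbound DNA. The paired exact test of class ratios cannot go below p = 0.25. Esrrb, which passed in no fit, was at -0.00 and took values of 0.073 with a pseudocount of 0.5 RPM, 0.15 centred, 0.0057 with limma-voom, 0.29 with 3 windows and 0.061 over local background, and -0.36 to 0.39 without each library in turn. Depth limits single windows: simulated differences of -2 on the log2 scale were recovered at 24% of 50 TSSs and 54% of 50 enhancers. These simulations used window means over all 18 EdU libraries, not those of nascent libraries alone.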
